A study of Mus musculus with 7 samples.

Results

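The genes named Psma to Psmg in the mouse encode the proteasome and the proteins that build or regulate it. All protein-coding genes whose symbol is Psm, a letter from a to g and a number were taken, which gave 51 of the 21535 protein-coding genes with a known strand. They comprised 7 alpha ring and 7 beta ring genes of the 20S core, 3 immunoproteasome genes, 2 tissue-restricted core genes, 6 ATPase and 11 non-ATPase genes of the 19S regulator, 6 activators or inhibitors, 7 assembly chaperones and 2 genes whose products are not subunits (Psmc3ip and Psme3ip1). The choice used only symbols and no measured value.

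ChIP-seq of 3 nuclear receptors, the retinoic acid receptors RARα and RARβ and the retinoid X receptor RXRα, was done in livers of wild type male C57BL/6 mice aged 3 months, fed a control diet or a diet containing retinoic acid (RA). The labels give 1 day of feeding, and the methods of the study give a longer treatment, so the duration is not settled. There was 1 library per receptor and diet, hence 6 peak lists, and an input library that was not used here. No difference below therefore has a replicate check, and no p-value was computed.

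The lists held 35521 (RARα, control), 44296 (RARα, RA), 14968 (RARβ, control), 29467 (RARβ, RA), 61128 (RXRα, control) and 59624 (RXRα, RA) peaks. The study's text gives read totals for RXRα and RARα without naming a diet, and they could not be matched to these libraries. The depth behind each list is therefore not known, and list length and depth cannot be told apart from receptor or diet. The deposited score is comparable only within a list, so it is given as a percentile. The percentile is the rank of a peak counted from the lowest score, in percent of the list length, with the mean rank for ties. As a check of the tissue, 6 genes of hepatocytes (Alb, Apoa1, Ttr, Serpina1a, Cyp7a1 and Hnf4a) were looked up. All 6 had a peak midpoint at most 10 kb from the start in both RXRα lists, and the RAR lists held 2 to 4 of them. Alb and Hnf4a had none in any RAR list.

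The proteasome degrades proteins tagged with ubiquitin. Its 20S core is a barrel of outer alpha rings, which gate the entrance, and inner beta rings, in which Psmb5, Psmb6 and Psmb7 carry the catalytic sites. Immune cytokines replace these with Psmb8, Psmb9 and Psmb10, which favours peptides for antigen presentation. The 19S regulator recognises, deubiquitinates and unfolds substrates, and PA28 and PA200 are alternative caps. RARs bind DNA as heterodimers with RXR and are activated by RA, whereas RXRα is also the partner of PPARα, LXR, FXR and other receptors of the liver.

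Promoter sequences are shown for 7 genes on which the results turn. They are the 250 bases before the start from RefSeq (GRCm38.p6), written 5′ to 3′ on the strand of the gene. Psmb3 and Psmd5 had strong RARβ peaks, Psmg1 and Psme4 had the highest RARα peaks under RA by outermost starts, Psma6 is shown at its downstream start, Psmb5 is a catalytic gene with modest peaks, and Psmb8 had a promoter peak in 3 lists only. Capitals mark a match on either strand to a nuclear receptor hexamer (AGGTCA or GGGTCA or AGTTCA or GGTTCA), to the ETS core CCGGAAG, or to the antioxidant response core TGACNNNGC. Matches on the other strand appear as their reverse complement. The windows lie at chr11:97703184-97703433 (plus strand), chr2:34870963-34871212 (minus strand), chr16:95990961-95991210 (minus strand), chr11:30771525-30771774 (plus strand), chr12:55398575-55398824 (plus strand), chr14:54617996-54618245 (minus strand) and chr17:34197945-34198194 (plus strand), in the order printed.
Psmb3: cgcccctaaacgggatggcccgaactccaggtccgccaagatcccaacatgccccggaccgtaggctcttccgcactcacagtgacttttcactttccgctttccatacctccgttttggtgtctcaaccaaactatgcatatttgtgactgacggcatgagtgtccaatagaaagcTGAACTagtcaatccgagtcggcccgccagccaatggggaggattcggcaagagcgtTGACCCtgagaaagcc
Psmd5: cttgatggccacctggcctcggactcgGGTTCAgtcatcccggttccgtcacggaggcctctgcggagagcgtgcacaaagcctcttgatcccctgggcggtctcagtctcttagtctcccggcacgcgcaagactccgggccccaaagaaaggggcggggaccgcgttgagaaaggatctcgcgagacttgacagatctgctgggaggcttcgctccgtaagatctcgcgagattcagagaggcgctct
Psmg1: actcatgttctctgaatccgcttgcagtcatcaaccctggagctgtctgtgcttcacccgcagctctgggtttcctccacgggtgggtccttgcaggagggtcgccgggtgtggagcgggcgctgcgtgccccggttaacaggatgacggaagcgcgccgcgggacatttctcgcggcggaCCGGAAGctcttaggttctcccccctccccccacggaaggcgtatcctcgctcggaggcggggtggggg
Psme4: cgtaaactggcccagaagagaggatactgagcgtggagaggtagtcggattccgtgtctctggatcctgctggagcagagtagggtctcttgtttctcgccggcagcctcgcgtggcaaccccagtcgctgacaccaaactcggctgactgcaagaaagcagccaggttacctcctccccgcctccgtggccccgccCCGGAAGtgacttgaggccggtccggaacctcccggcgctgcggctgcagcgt
Psma6 (downstream start): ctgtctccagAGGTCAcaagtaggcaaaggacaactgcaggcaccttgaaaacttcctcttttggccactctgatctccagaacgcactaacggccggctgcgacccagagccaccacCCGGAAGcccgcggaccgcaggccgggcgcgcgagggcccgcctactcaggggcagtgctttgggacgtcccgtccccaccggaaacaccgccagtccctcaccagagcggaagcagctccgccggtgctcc
Psmb5: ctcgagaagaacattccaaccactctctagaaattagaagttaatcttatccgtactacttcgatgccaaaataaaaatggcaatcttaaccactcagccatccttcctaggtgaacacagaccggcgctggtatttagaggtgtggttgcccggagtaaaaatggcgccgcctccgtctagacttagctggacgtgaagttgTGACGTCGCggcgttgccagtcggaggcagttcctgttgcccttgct
Psmb8: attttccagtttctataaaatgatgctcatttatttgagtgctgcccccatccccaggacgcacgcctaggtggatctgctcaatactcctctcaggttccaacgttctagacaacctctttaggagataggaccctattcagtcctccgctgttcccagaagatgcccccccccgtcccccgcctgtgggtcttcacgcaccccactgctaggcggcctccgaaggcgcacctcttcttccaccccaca

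Psmb3 held 2 receptor hexamers, both on the other strand, and Psmd5 held 1. The window of Psmg1 and that of Psme4 each held 1 ETS core and no hexamer, although their RARα peaks were the highest of the group under RA by outermost starts. The downstream Psma6 window held both kinds, Psmb5 held the antioxidant response core alone, and Psmb8 held none of these letters. A match is a description of the sequence and not evidence of a site in use.

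Most proteasome genes carried a receptor peak at the start. A peak midpoint lay within 1 kb of the start for 45 of 51 genes (88.2%, Wilson 95% interval 76.6 to 94.5) in the RARα control list, against 45.9% of all protein-coding genes. The corresponding number was 45 (88.2%) for RARα under RA against 46.2%, 38 (74.5%) for RARβ under the control diet against 33.1%, and 42 (82.4%) for RARβ under RA against 40.3%. For RXRα it was 38 (74.5%) under the control diet against 40.1%, and 41 (80.4%) under RA against 41.9%. In all 6 lists the share of proteasome genes was thus above that of all genes. These intervals cover counting error only, and genes are not replicates of a condition.

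Within 10 kb, the RARα lists held a peak for 48 genes under either diet (94.1%), against 61.9% of all genes under the control diet and 63.3% under RA. The RARβ lists held 41 (80.4%) and 46 (90.2%), against 44.1% and 54.7%. The RXRα lists held 47 (92.2%) and 45 (88.2%), against 61.3% and 61.7%. A peak within 10 kb was present in all 6 lists for 37 of 51 genes (72.5%), against 38.2% of all genes. Within 1 kb this held for 29 of 51 (56.9%), against 24.7%.

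**Figure D1:**
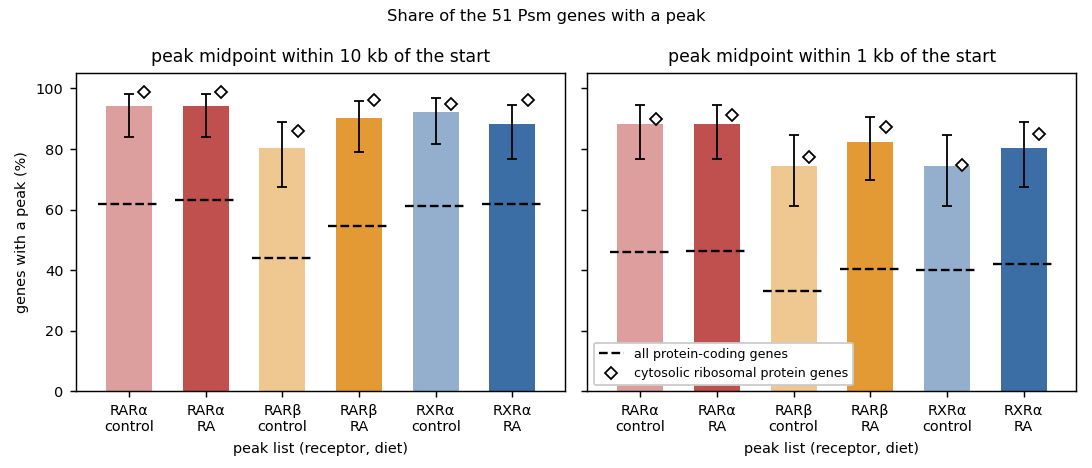
Share of the 51 genes with a peak midpoint within 10 kb (left) or 1 kb (right) of the start, in percent, in each list. Bars are the proteasome genes with Wilson 95% intervals (counting error only), dashed lines all protein-coding genes and diamonds the 79 cytosolic ribosomal protein genes. The bars lie above the dashed lines in all 6 lists, and so do the diamonds, which lie at or above the bars.

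Other gene groups also had many promoter peaks. Of 79 cytosolic ribosomal protein genes, a family expressed in every cell, 71 (89.9%) had a peak within 1 kb in the RARα control list and 59 (74.7%) in the RXRα control list. Of 35 further genes of the ubiquitin-proteasome pathway, among them Nfe2l1 (the activator of proteasome genes), Vcp (the unfoldase) and Pomp (a core chaperone), 25 to 31 had one, depending on the list. Their lowest share was 71.4%, in the RXRα control list, and their highest 88.6%, for RARα under RA.

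The 20S alpha ring was bound at 5 or 6 of its 7 genes in each list. Psma1, Psma2, Psma4 and Psma5 had a promoter peak in all 6 lists. Their RARα control percentiles were 93.6, 91.3, 92.0 and 87.3. Psma7, a subunit of the ring whose start lies head-to-head with that of Ss18l1, had percentiles of 82.6 and 87.2 for RARα, no peak and 55.2 for RARβ, and 8.01 and 41.1 for RXRα, control first. Its RXRα peaks were thus low in their lists beside its RARα peaks. Within 1 kb of its outermost start, Psma3 had 45.6 and 37.8 for RARα and 49.5 and 48.9 for RARβ. Its RXRα peak there was in the control list only, at 10.8.

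Psma6 had no peak within 1 kb of its outermost start in any list, and within 10 kb only in the lists for RARβ under RA (30.0) and RXRα (26.8 and 74.0). RefSeq also lists a start 14.6 kb downstream, and there a peak lay within 1 kb in all 6 lists. The percentiles at that start were 97.7 and 98.6 for RARα, 60.1 and 94.2 for RARβ, and 69.7 and 65.9 for RXRα. Psma6 was thus among the strongest RARα peaks of the group once its other start was used. Psma3 and Psmf1 (PI31, a regulator of the core) likewise had a peak at a downstream listed start, 5.34 and 2.89 kb in, in all 6 lists. At that start of Psma3 the percentiles were 87.2 and 74.9 for RARα, 47.6 and 45.6 for RARβ, and 37.9 and 61.6 for RXRα. With the starts of the promoter table, the numbers of genes with a peak within 1 kb were 48, 47, 40, 44, 40 and 44, in the order of the lists above. The shares of all genes under that setting were 49.1%, 49.1%, 35.2%, 42.9%, 42.5% and 44.4%.

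The 20S beta ring included the strongest RARβ and RXRα promoter peaks of the group. Psmb2, a structural beta subunit, had percentiles of 92.0 and 92.9 for RARα, 99.0 and 98.7 for RARβ, and 80.6 and 76.4 for RXRα. It ranked 151 of 14968 peaks in the RARβ control list and was the highest of the group in both RXRα lists. Psmb3, another structural subunit, had 86.0 and 65.8 for RARα, 97.9 and 99.6 for RARβ, and 68.0 and 75.4 for RXRα. Its RARβ peak under RA, of rank 133 among 29467, had its midpoint at -560 bp (negative values are upstream) and nearer to the start of Pcgf2, the head-to-head neighbour. For both genes the RARβ percentile exceeded the RARα percentile, under both diets.

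The catalytic genes of the standard core differed among themselves. Psmb5 (chymotrypsin-like) had percentiles of 53.6 and 76.2 for RARα, 16.8 and 26.7 for RARβ, and a control RXRα peak at 23.5, with no RXRα peak within 10 kb under RA. Psmb6 (caspase-like) had 85.1 and 86.4 for RARα, 9.02 and 61.5 for RARβ, and 62.4 and 50.6 for RXRα. Psmb7 (trypsin-like) had 62.9 and 60.6 for RARα, 60.7 and 70.5 for RARβ, and 37.7 and 47.6 for RXRα. The 3 genes therefore did not share a pattern: Psmb5 was low in the RARβ and RXRα lists, whereas Psmb6 was low for RARβ under the control diet only, and Psmb7 was lowest for RXRα. Of the other structural genes, Psmb4 had no RARβ control peak, and Psmb1 had no RXRα control peak within 1 kb.

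The immunoproteasome genes were bound less regularly. Psmb8 had a promoter peak in 3 lists only, at percentiles of 38.2 (RARα, control), 3.63 (RARα, RA) and 0.695 (RARβ, control). Psmb9, which shares its start region with Tap1, the peptide transporter, had 77.4 and 73.5 for RARα, 82.0 and 54.3 for RARβ, and 41.0 for RXRα under RA only. Psmb10 had a peak within 1 kb in the lists for RARα under the control diet (81.3), RARβ under RA (82.0) and RXRα under RA (66.4), with midpoints 592 to 796 bp downstream of the start. In the RXRα control list 0 of the 3 genes had a promoter peak, against 40.1% of all genes, although each had a peak within 10 kb. For Psmb10 that list held a peak at 1282 bp, just beyond the limit of 1 kb. Near Psmb10, a stronger peak at the start of Lcat, a lipoprotein enzyme of the liver, reached percentiles of 98.8 for RXRα under the control diet and 99.0 for RARα under RA.

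Neither tissue-restricted core gene had a promoter peak. Psma8, the testis form of an alpha subunit, had no peak within 10 kb in any list. Psmb11, the thymus form of a catalytic subunit, had peaks within 10 kb in 5 lists, and these were the promoter peaks of its neighbour Psmb5.

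**Figure D2:**
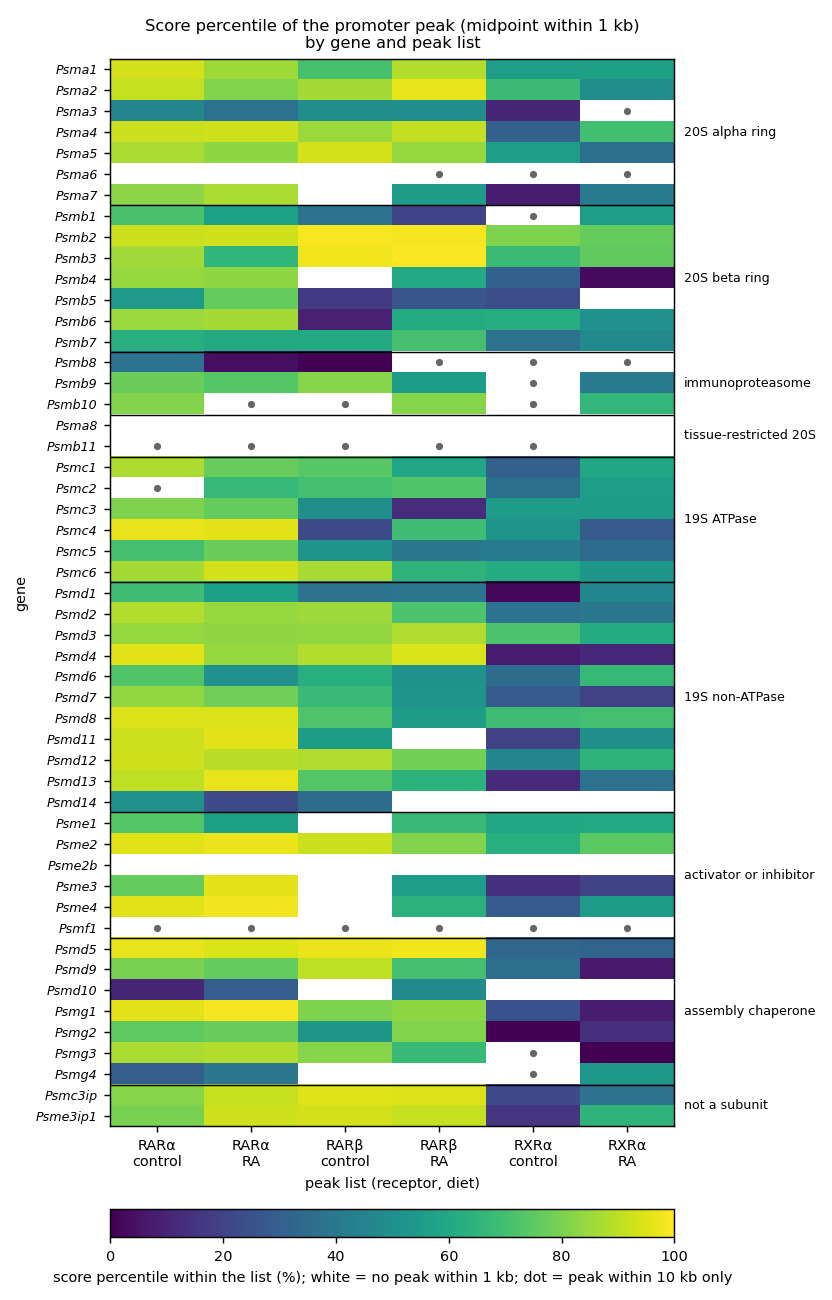
Score percentile (colour, in percent) of the promoter peak of each gene (rows, grouped by class) in each list (columns). White cells had no peak within 1 kb and a dot marks a peak within 10 kb only. The RARα columns are the brightest, and Psma8 and Psme2b are white throughout with no dot.

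In the 19S regulator, the 6 ATPase genes, which unfold the substrate, had a promoter peak in all lists with 1 exception. Psmc4 had percentiles of 96.7 and 95.4 for RARα, 23.0 and 69.0 for RARβ, and 51.6 and 28.7 for RXRα. By outermost starts it was the highest of the group in the RARα control list, with a score of 499.8, and low in the RARβ list of the same diet. Its highest RXRα peaks, at 91.7 and 89.9, lay at -3368 and -3380 bp and not at its start. The exception was Psmc2 in the RARα control list, where the peak lay 1.55 kb inside the gene, near another listed start, and not at the outermost start.

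Of the 11 non-ATPase genes, 11 had a promoter peak in both RARα lists and in the RARβ control list, 9 for RARβ under RA and 10 in each RXRα list. Psmd14, the deubiquitinase of the lid, had percentiles of 51.3 and 23.3 for RARα and 35.5 for RARβ under the control diet, and no peak within 10 kb in the other 3 lists. Psmd11, a lid subunit, had 92.2 and 95.4 for RARα, 55.1 for RARβ under the control diet, none for RARβ under RA, and 19.7 and 49.7 for RXRα. Psmd3, also in the lid, had 84.2 and 83.3 for RARα, 83.9 and 88.1 for RARβ, and 71.5 and 61.6 for RXRα, and stood high in all 6 lists. Psmd14 and Psmd3 thus mark the weak and the even end of the lid genes.

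Among the activators, Psme2 (PA28β) had percentiles of 95.5 and 97.1 for RARα, 91.8 and 80.9 for RARβ, and 62.5 and 74.7 for RXRα. Psme1 (PA28α), its partner in the same cap, had 73.6 and 56.8 for RARα, 67.4 for RARβ under RA only, and 60.0 and 60.7 for RXRα. By the highest-scoring peak within 1 kb, Psme2 stood above Psme1 in the 5 lists that held both, and alone had a RARβ control peak. For RARβ under RA and RXRα under the control diet, that peak lay at -638 and -624 bp, at the start of the head-to-head Rnf31. The separate peaks at the start of Psme2 stood at 38.0 and 17.1 in those lists, below the Psme1 values. Psme3, the nuclear PA28γ, had 76.5 and 96.0 for RARα, 55.7 for RARβ under RA only, and 14.2 and 20.6 for RXRα. Psme4 (PA200) had 95.4 and 98.1 for RARα, 64.3 for RARβ under RA only, and 29.2 and 54.4 for RXRα. Psme2b, an intronless copy of Psme2, had no peak within 10 kb in any list.

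The assembly chaperones of the 19S regulator and the core ranged widely. Psmd5, which holds an ATPase during assembly, had percentiles of 96.4 and 94.4 for RARα, 96.9 and 97.8 for RARβ, and 33.2 and 32.4 for RXRα. Psmg1, a chaperone of the alpha ring, had 95.9 and 98.8 for RARα, 80.6 and 82.9 for RARβ, and 25 and 7.44 for RXRα. Both were thus near the top of the RARα lists and low in the RXRα lists, and Psmd5 was also near the top of the RARβ lists. Psmd10 (gankyrin) had 10.6 and 29.7 for RARα and 47.3 for RARβ under RA, and no peak within 10 kb in the other 3 lists. Psmg4 had 30.3 and 39.5 for RARα and 53.2 for RXRα under RA, and no RARβ peak within 10 kb.

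Promoter peaks of the proteasome genes stood high in the RAR lists and lower in the RXRα lists. Their median percentile was 84.2 and 83.0 for RARα, 73.6 and 68.2 for RARβ, and 35.6 and 49.7 for RXRα, control first. The medians of all protein-coding genes with a promoter peak were 80.1 and 78.6, 70.2 and 70.0, and 51.5 and 54.1. Those of the ribosomal protein genes were 90.7 and 93.5, 81.1 and 78.8, and 41.6 and 45.3. The proteasome genes lay furthest below all genes in the RXRα control list, and the RARα medians lay slightly above them.

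A promoter peak at the 90th percentile or above was present for 14 genes in each RARα list, or 31.1% of those with a promoter peak, against 28.1% of all genes under the control diet and 26.6% under RA. It was present for 8 genes in each RARβ list, or 21.1% under the control diet against 16.3%, and 19% under RA against 19%, so that under RA the share equalled the background. In the RXRα lists 0 genes reached it, against 5.73% and 5.43% of all genes.

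**Figure D3:**
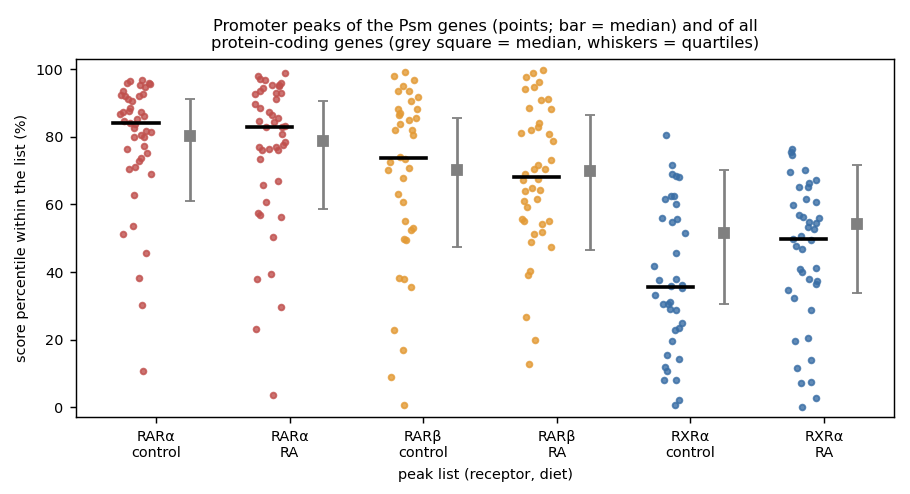
Score percentile of the promoter peak of each proteasome gene (points; black bar, median) in each list, beside the median and quartiles of all protein-coding genes with a promoter peak (grey). The points crowd towards the top for RARα and reach no further than 80.6 for RXRα.

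The percentiles were set side by side in genes with a promoter peak for both receptors of a pair. The RARα percentile was above the RXRα percentile in 37 of 37 genes under the control diet, against 81.5% of all genes, and in 36 of 40 under RA, against 80.3%. The RARβ percentile was above the RXRα percentile in 29 of 33 genes under the control diet and in 33 of 39 under RA, against 68.2% of all genes in both. The RARα percentile was above the RARβ percentile in 27 of 37 genes (73.0%) under the control diet, against 70.8%, and in 25 of 41 (61.0%) under RA, against 65.7%. The last pair was therefore close to its background. Percentiles depend on what else a list holds, and the RXRα lists were the longest.

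With each list shortened to its 14968 highest-scoring peaks, the numbers of genes with a promoter peak were 39 and 34 for RARα, 38 and 35 for RARβ, and 1 and 2 for RXRα. The shares of all genes were 35.6% and 31.1%, 33.1% and 29.3%, and 7.60% and 8.70%. The RAR numbers thus stayed above the background, whereas the RXRα numbers fell below it. Psmb2 was the gene that remained in both RXRα lists, joined under RA by Psmb3.

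Few calls differed between the diets for RARα. Within 1 kb, Psmc2 had a RARα peak under RA only, so that 1.96% of the genes changed this way against 2.93% of all genes, and Psmb10 had one under the control diet only (1.96%), against 2.64%. At its other listed start, 1.47 kb in, Psmc2 had a RARα peak under both diets, at 86.3 and 85.7. The calls of Psmb10 turned on the limit of 1 kb, since the lists without a call held a peak at 1224 bp (RARα, RA), 1326 bp (RARβ, control) and 1282 bp (RXRα, control). For RARβ, 7 genes had a promoter peak under RA only (Psma7, Psmb10, Psmb4, Psmd10, Psme1, Psme3 and Psme4), against 9.89% of all genes, and 3 under the control diet only (Psmb8, Psmd11 and Psmd14), against 2.64%. For RXRα, 5 genes (9.80%) had one under RA only (Psmb1, Psmb10, Psmb9, Psmg3 and Psmg4), against 5.44%, and 2 (3.92%) under the control diet only (Psma3 and Psmb5), against 3.67%. The peak of Psmg3 was near the bottom of its list, at rank 59561 of 59624 and percentile 0.102. At its downstream listed start Psma3 had an RXRα peak under both diets, at 37.9 and 61.6. The RARβ list under RA was also the longer of its pair, and at equal list length its count was below that of the control list (35 and 38). Of the 7 genes, 6 were still called under RA at that length, and Psmd10 was not. At that length 29 genes were called under both diets, so more were called under the control diet only than under RA only. By outermost starts, the 4 activator genes bound by RARβ under RA were Psme1 to Psme4, of which Psme2 alone also had a RARβ control peak. Psmf1, of the same class, had a RARβ peak at its downstream listed start under both diets, at 41.0 and 51.7.

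Where both diets had a promoter peak, the percentile was higher under RA in 20 of 44 genes for RARα (45.5%, against 46.3% of all genes), in 15 of 35 for RARβ (42.9%, against 60.8%) and in 22 of 36 for RXRα (61.1%, against 57.5%). The median difference, RA minus control, was -1.50 points in the RARα lists, -0.600 in the RARβ lists and 2.78 in the RXRα lists. For RARβ the proteasome genes thus showed little shift, whereas the median difference of all genes was 2.87 points. With 1 library per diet, none of these differences can be set against a spread.

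Promoter peaks of the different lists covered the same places. Peaks of a pair of lists counted as shared if the overlap reached 25% of both widths. Between diets, this held in 43 of 44 genes for RARα (97.7%, against 99.4% of all genes with a promoter peak in both lists), in 35 of 35 for RARβ (against 98.1%) and in 36 of 36 for RXRα (against 98.5%). Under the control diet it held in 37 of 37 genes for RARα and RXRα (against 96.7%), in 33 of 33 for RARβ and RXRα (against 95.7%) and in 36 of 37 for RARα and RARβ (against 98.1%). Under RA it held in 39 of 40 (against 97.7%), 39 of 39 (against 98.3%) and 41 of 41 (against 99.0%) for the same pairs. The exceptions were Psmb8, between the RARα lists and between RARα and RARβ, and Psme1, between RARα and RXRα under RA. These shares were all near the background.

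The median midpoint of the promoter peaks lay upstream of the start in each list, at -20 and -58 bp for RARα, -52 and -50 bp for RARβ, and -67 and -70 bp for RXRα. Over all genes the median midpoints were 32 and 22, -20 and -2, and -19 and -6 bp. The median width was 892 and 752 bp for RARα, 632 and 848 bp for RARβ, and 644 and 678 bp for RXRα. The medians over the promoter peaks of all genes were 879 and 702, 590 and 844, and 663 and 722 bp, so the widths were those of promoters in general.

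In the RAR lists the highest peak within 10 kb was mostly the promoter peak. This held for 37 of 48 genes in both RARα lists (77.1%), against 65.1% (control) and 61.6% (RA) of all genes, and for 35 of 41 (85.4%) and 36 of 46 (78.3%) in the RARβ lists, against 69.3% and 62.7%. In the RXRα lists it held for 19 of 47 (40.4%) and 24 of 45 (53.3%), against 43.5% and 46.5%. Several strong RXRα peaks lay beyond 1 kb. Those near Psme1 and Psme2, at percentiles of 92.3 and 85.3, were the same peaks at the start of Emc9, and those near Psmd13, at 96.2 and 93.6, lay at -1533 and -1811 bp.

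**Figure D4:**
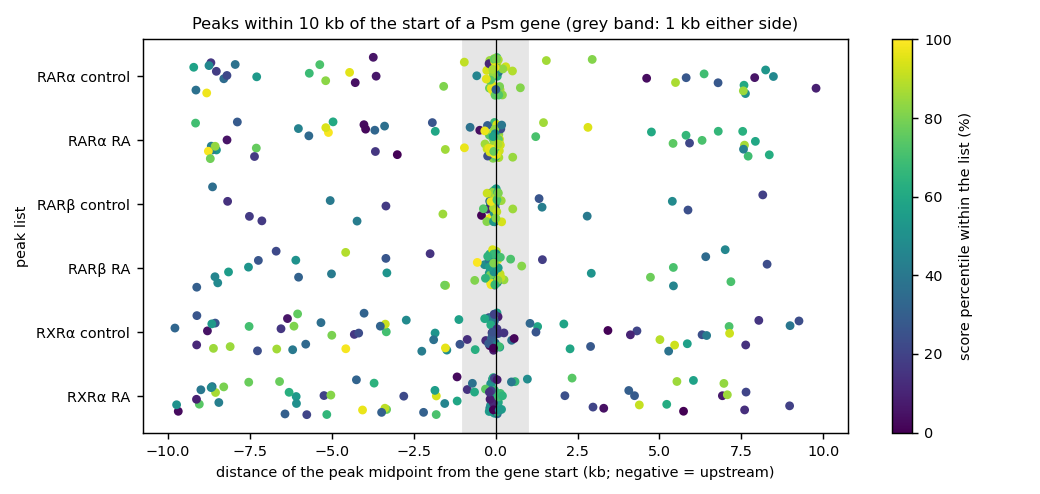
Distance of each peak midpoint within 10 kb from the start of a proteasome gene (kb, negative upstream), by list, coloured by score percentile. The points are densest in the grey band of 1 kb on either side. In the RXRα lists 51 of 92 (control) and 48 of 91 (RA) distinct peaks lie outside it. A peak near several proteasome genes is drawn for each of them, so the points outnumber the distinct peaks.

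An opposite-strand start within 1 kb was present for 11 of the 51 genes (21.6%), against 10.8% of all protein-coding genes. In the RARα control list, 10 of these 11 (90.9%) and 35 of the other 40 (87.5%) had a promoter peak, against 88.2% and 40.8% of all genes of the same kinds. The high share was thus also seen in proteasome genes without such a neighbour. Where starts are that close, a peak cannot be assigned to either gene.

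A promoter window of 250 bases before to 50 after the start was in the RefSeq table for 43 of the 51 genes. The ETS core CCGGAAG, on either strand, occurred in 15 of them (34.9%), against 11.9% of all 17492 windows and 20.7% of those whose gene had a RARα control peak. Psma6 was not among the 15, although its downstream window printed above held this core, so the count did not use that window. Any of the receptor hexamers occurred in 18 (41.9%), against 40.9% of all windows and 37.3% of those with a RARα control peak. AGGTCA alone occurred in 9 (20.9%), against 14.5% and 11.9%. Direct repeats of the hexamers with 1, 2 or 5 bases between them occurred in 0 windows, against 0.183%, 0.0972% and 0.0858%. Only 32, 17 and 15 of the 17492 windows held one, so 0 among 43 cannot set these genes apart. The antioxidant response core TGACNNNGC, the motif of Nfe2l1 and Nfe2l2, occurred in 6 (14.0%), against 13.1%. The letters absent from these windows may lie outside them.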

How the data were processed

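ChIP-seq libraries of mouse liver were analysed as deposited peak lists on mm10 (GRCm38), 1 per receptor and diet. Per the labels and methods, the authors aligned reads with Bowtie and called peaks with MACS. The score that the authors deposited for each peak comes from the caller and is not normalised between libraries, and no list held a score under 50. Read totals were not used here, so the depth is unknown.

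Gene spans and symbols came from a RefSeq table of GRCm38.p6. The outermost start was used, with the strand from the promoter table for 43 of the 51 genes and by symbol from GENCODE M1 for 8. A peak was assigned to a start by its midpoint, and where several qualified the highest-scoring was described. Overlaps were computed with bedtools 2.31.1 and counts with pandas 2.3.3. The assignment was tested on simulated peaks.

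Genes named were the 2 highest promoter peaks per list, genes without a peak within 10 kb in some list, genes whose call differed between diets, and catalytic, immunoproteasome and activator genes with Psma8, Psmc4, Psmd11 and Psmd14. Other genes named (Psma1, Psma2, Psma4, Psma5, Psmf1, Psmd13, Psmg3, Psmc3ip and Psme3ip1) were chosen after their values were seen. The genes and lists were chosen with earlier results of these data known. Of 36 pathway genes, Paaf1 was not found. Alternatives were equal list length, a higher score limit, other distances, any part of the peak, a narrower membership, a larger overlap, the nearest peak and, added after seeing the data, the starts of the promoter table.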

Additional observations from a re-analysis of the deposited data

Results flagged for a closer look

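The number of genes with a peak within 10 kb moved in opposite directions between the diets for RARβ and RXRα. For RARβ it was 41 under the control diet and 46 under RA, a difference of 5, and for RXRα it was 47 and 45, a difference of -2. For RARα it was 48 under both. The shares of all genes were 44.1% and 54.7% for RARβ, and 61.3% and 61.7% for RXRα. Both directions turned at equal list length, with 41 and 39 genes for RARβ and 12 and 14 for RXRα. Within 1 kb both receptors had more genes under RA, by 4 and 3. This difference was not tested, since there was 1 library per receptor and diet.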

How the results depend on the processing

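No paired analysis was possible because each group had 1 library and no result came from a test. With each list shortened to its 14968 highest-scoring peaks, the RXRα counts fell to 12 (control, 23.5% against 20.6% of all genes) and 14 (RA, 27.5% against 21.4%) genes within 10 kb and to 1 and 2 within 1 kb, and the genes with shared promoter peaks fell to 1 for the RXRα lists, 1 for RARα and RXRα and 1 for RARβ and RXRα under the control diet, and 1 and 2 for the same pairs under RA. These values move because the setting removes the lower-scoring peaks. With only peaks of a score of at least 100, the counts were 24 within 10 kb and 23 within 1 kb for RARβ under the control diet and 20 within 1 kb for RXRα under the control diet, and the median percentile, ranked among those peaks, was 72.9 and 74.2 for RARα, 57.8 and 43.0 for RARβ, and, under RA, 31.2 for RXRα. The RAR and RXRα shares of proteasome genes at that score remained above those of all genes within 1 kb, for example 45.1% against 17.4% for RARβ under the control diet and 39.2% against 28.1% for RXRα. A shorter distance, any part of the peak, the narrower membership, the overlap of at least 50%, the nearest peak and the promoter table's starts moved no count or median beyond its limit. Depth limits all absences: a gene without a peak was not detected in that list.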

Other observations

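Other motifs were counted in the promoter windows of the 43 genes. The CCAAT box occurred in 16 (37.2%), against 39.2% of all windows and 40.5% of those with a RARα control peak. The Sp1 box GGGCGG occurred in 24 (55.8%), against 46.3% and 66.7%, so that the direction turned with the windows compared. The TATA box TATAAA occurred in 4 (9.30%, Psmb4, Psmb8, Psmd1 and Psmd6), against 13.3% and 6.89%. The NRF1 core GCGCATGC occurred in 3 (6.98%, Psma2, Psmc5 and Psmg1), against 3.61% and 6.08%, and the YY1 core ATGGCGGC in 2 (4.65%, Psmb6 and Psmd5), against 3.21% and 5.81%. The median GC content of the windows was 57.3%, against 56.3% in all windows and 61.3% in those with a RARα control peak.

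The genes of the group whose products are not subunits had promoter peaks in all 6 lists. Psmc3ip, a meiotic recombination factor, had percentiles of 81.7 and 91.1 for RARα, 95.1 and 94.6 for RARβ, and 22.9 and 37.8 for RXRα, control first. Psme3ip1, which binds PA28γ, had 79.8 and 92.7, 93.6 and 91.2, and 15.5 and 65.0.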
